A study of Mus musculus with 40 samples.

Results

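The genes described here are 42 genes of the cell cycle and of DNA replication, named by symbol, matched to Ensembl identifiers and followed in mouse liver across a TCDD dose response. They are 42 of the 55359 genes in the count tables, and all 42 passed the filter on low counts that left 15373 genes for testing. By their known roles, 21 act at the G1/S step and in DNA synthesis and 21 act in G2 and mitosis (G2/M).

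TCDD is a dioxin, a persistent contaminant whose known receptor is AhR, the aryl hydrocarbon receptor, which acts in the nucleus on gene expression. RNA-Seq was performed on the livers of 40 male C57BL/6 mice, 5 in each of 8 groups. The groups received sesame oil vehicle or TCDD in sesame oil at 30, 10, 3, 1, 0.3, 0.1 or 0.03 μg/kg by oral gavage, with 7 doses given 4 days apart over 28 days. By the labels all mice were 30 days old at the start and 58 days old at the end, vehicle mice included.

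Before a cell copies its DNA, the MCM2-7 ring is loaded onto replication origins by CDC6 and CDT1, and CDC45 and the GINS complex then join it to form the CMG helicase that opens the DNA. Cyclin D and cyclin E, through their kinases, release E2F transcription factors that drive genes for this machinery, whereas cyclin A and cyclin B with CDK1 drive the later entry into mitosis. Most hepatocytes of an adult liver rest outside the cycle, and they re-enter it after injury or loss of tissue.

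Reads assigned to genes, in units of 1e+06 (M), ranged from 15.5 to 21.0 M per library (median 17.5 M). Levels are given as counts per M reads assigned to genes (CPM) after trimmed mean of M-values (TMM) scaling, with the SD between 5 mice. Each dose was compared with vehicle by the quasi-likelihood test of edgeR, with p adjusted after Benjamini-Hochberg over all 15373 genes, and a gene is called higher or lower when the adjusted p is under 0.05 and the fold change is at least 1.5. An adjusted p below is from that test, unless another comparison, scaling, set of libraries or kind of count is named. It weighs a difference against the spread between mice, and for the main results that spread was estimated over all 40 libraries. The hepatocyte markers Alb, Ttr, Apoa1, Apob, Serpina1a, Tat, Cps1 and Hnf4a summed to 103224 to 124673 CPM in the vehicle mice, as the liver label implies.

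At 30 μg/kg, 38 of the 42 genes exceeded their vehicle level and 2 fell below it, where 23.2% of all genes tested were called higher and 18.9% lower. At 10 μg/kg, 34 were higher and 2 were lower, against 13.6% and 8.13% of all genes. The lower genes were Mcm10 and E2f8 at both doses, and each rise called at 30 μg/kg had an adjusted p of 0.000978 or less. At 30 μg/kg the exceptions were Gins1 and Tyms, which were not called in either direction. The change set in between 3 and 10 μg/kg for most of them: 30 of the 42 were called from 10 μg/kg upward and at no lower dose, 5 from 30 μg/kg only, 4 from 3 μg/kg and 1 from 1 μg/kg. At 0.03, 0.1 and 0.3 μg/kg edgeR called none, where it called 0.0195%, 0.0976% and 0.468% of all genes. At an unadjusted p under 0.05 there were 7, 3 and 3 of the 42 genes at those doses, where 2.56%, 4.33% and 7.33% of all genes were, and the 7 at 0.03 μg/kg were all above vehicle. DESeq2 also called 0 at each of these doses. At 0.03 μg/kg 0 of the 42 genes had all 5 treated mice above all 5 vehicle mice, where 39 of 15373 genes had.

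**Figure D1:**
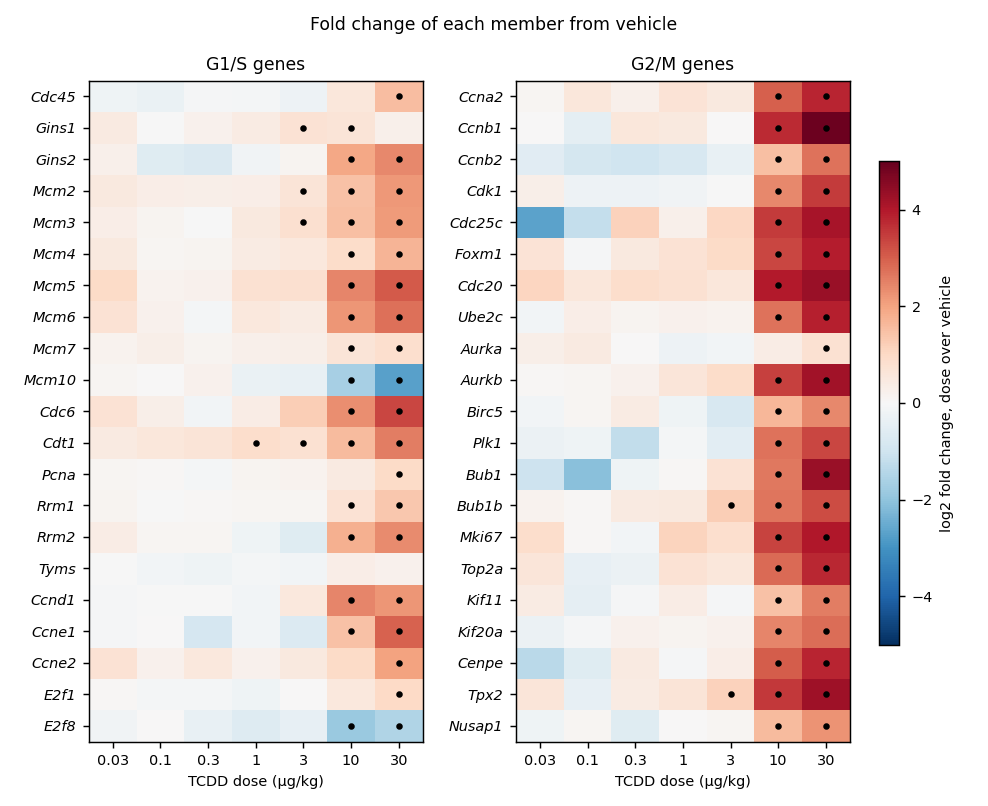
Heat map of the fitted log2 fold change from vehicle of each gene (rows, G1/S genes on the left and G2/M genes on the right) at each TCDD dose in μg/kg (columns), with a dot where the gene was called. Dots mark 36 genes at 10 μg/kg and 40 at 30 μg/kg, the G2/M panel is the deeper red, and Mcm10 and E2f8 are the blue rows at 10 and 30 μg/kg.

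Without overlap between mice the picture was alike. At 30 μg/kg all 5 treated mice lay above all 5 vehicle mice for 37 genes and below them for 2, where 19.7% and 17.9% of all genes did so. At 10 μg/kg the counts were 32 above and 2 below, against 12.9% and 10.1% of all genes. The sample titles are numbered in separate runs, 19 libraries up to 27 and 21 libraries from 28, with 2 or 3 mice of each group in each run. Within each run alone 37 members were called at 30 μg/kg, and 29 and 26 were called at 10 μg/kg. Scaling to total counts alone, which moved the median log2 fold change of all genes at 30 μg/kg from 0.03 to 0.52, gave 40 members higher and 1 lower at 30 μg/kg, and it raised the genes called higher from 3567 of 6476 to 6402 of 7961.

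The G2/M genes had the larger folds, while the median gain per kb of annotated exon was close in both classes. At 30 μg/kg 17 of 21 G1/S genes were higher and 2 were lower, with a median log2 fold change of 2.01, while all 21 G2/M genes were higher, with a median of 3.80. The median over all genes tested was 0.03. At 10 μg/kg the medians were 0.97 for G1/S and 2.72 for G2/M, with 14 higher and 2 lower of 21, and 20 higher of 21. In vehicle the G2/M genes started from far lower levels: the median was 0.554 CPM for G2/M and 4.35 CPM for G1/S, and 13 G2/M genes but 4 G1/S genes lay under 1 CPM.

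Averaged over the 21 genes of a class on the log2 CPM scale, and set to 0 at the vehicle mean, the G2/M level was 3.10, 3.38, 3.31, 3.51 and 3.09 in the 5 mice at 30 μg/kg. The G1/S level was 1.51, 1.48, 1.15, 1.78 and 1.40 in the same mice. In every one of them the G2/M value was the larger, by 1.59 to 2.16, where the same difference ran from -0.30 to 0.27 in vehicle mice and from 1.28 to 1.74 at 10 μg/kg. At 3 μg/kg it ran from -0.30 to 0.36 and overlapped vehicle. At 0.03 μg/kg the G1/S level was 0.58, 0.42, 0.05, 0.13 and 0.11 in replicates 1 to 5, where the highest vehicle mouse was at 0.21. These class values are descriptions of the chosen genes and were not tested.

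**Figure D2:**
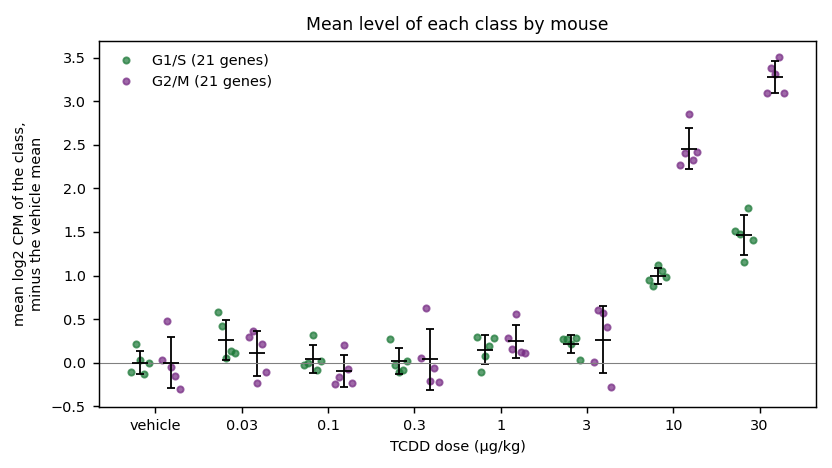
Mean log2 CPM of the 21 G1/S genes (green) and the 21 G2/M genes (purple) in each mouse, minus the vehicle mean of the class, by TCDD dose in μg/kg, with the mean and SD of 5 mice as black bars. At 3 μg/kg both classes still overlap vehicle, and at 30 μg/kg the G2/M values lie between 3.09 and 3.51, above the G1/S values between 1.15 and 1.78.

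The gain from vehicle to 30 μg/kg, in CPM per kb of annotated exon, had a median of 1.61 for G1/S (quartiles 0.505 and 4.29) and 1.66 for G2/M (quartiles 1.01 and 1.84). The vehicle level per kb was 1.15 for G1/S and 0.140 for G2/M. The length is that of all annotated exons of a gene merged, not of 1 transcript. It keeps bases shared with other genes, whose reads unstranded counts leave out, so these values are approximate. Of the G2/M genes 19 had under 20 mean counts in vehicle, and of the G1/S genes 4 had. At 30 μg/kg all 19 and all 4 were called higher, where 1437 of all 3504 tested genes under 20 vehicle counts were. At 10 μg/kg 19 and 3 were, where 820 of the 3504 were. These 3504 genes had a median log2 fold change of 0.84 at 30 μg/kg. The genes of fewest vehicle counts, members included, passed the filter only through treated mice with higher counts. The counts called higher and the sign of this median are therefore in part set by the filter. Summed over the class, the 21 G1/S genes went from 158 ± 15.0 to 337 ± 66.1 CPM (SD, n = 5), or from 112 ± 8.97 to 330 ± 65.3 CPM without Mcm10, and the 21 G2/M genes went from 16.6 ± 2.47 to 157 ± 20.8 CPM.

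**Figure D3:**
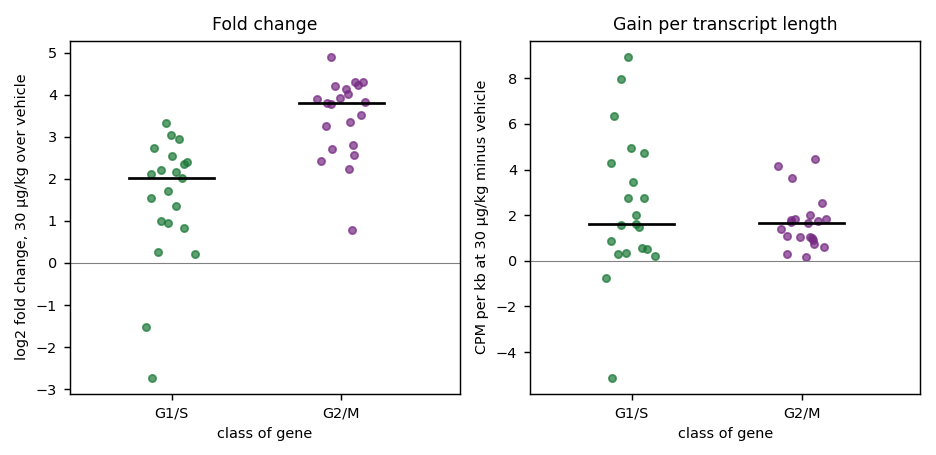
Each point is 1 gene of a class: on the left its log2 fold change at 30 μg/kg over vehicle, on the right its gain in CPM per kb of exon, with the class median as a bar. The medians differ on the left (2.01 for G1/S, 3.80 for G2/M) and lie close on the right (1.61 and 1.66), and the lowest G1/S points are Mcm10 and E2f8.

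Many genes of DNA synthesis are known to be bound by E2F factors at their promoters, and many mitotic genes carry a cell cycle homology region (CHR), often beside CCAAT boxes. RefSeq promoters (GRCm38.p6, 250 bases before to 50 after the start) were matched for 31 of the 42 genes, 16 G1/S and 15 G2/M. The genes without a match were Gins1, Gins2, Mcm4, Ccnd1, Ccne2, Ccna2, Cdc25c, Foxm1, Aurkb, Kif20a and Tpx2. On either strand, an E2F-like motif (the letters TTCCCGC, the letters TTGGCGC, the letters TTGCCGC or the letters TTCGCGC) was present in 9 of 16 G1/S promoters (56.2%), 3 of 15 G2/M promoters (20.0%) and 9.69% of the promoters of all 27025 genes. A CHR motif (TTTGAA or TTCGAA) was present in 4 G1/S (25.0%), 11 G2/M (73.3%) and 19.4% of all promoters. CCAAT was present in 11 G1/S (68.8%), 13 G2/M (86.7%) and 37.9% of all, and where TTGGCGC on the other strand is followed by T the same bases hold a CCAAT. The AhR core GCGTG was present in 8 G1/S (50.0%), 10 G2/M (66.7%) and 32.5% of all. In the 250 bases before the start alone, an E2F-like motif was present in 7 G1/S (43.8%), 3 G2/M (20.0%) and 7.97% of all promoters. A CHR motif was present there in 4 G1/S (25.0%), 8 G2/M (53.3%) and 17.4% of all. These are shares of letters in a window and say nothing of binding.

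The following stretches, the 150 bases before the start read 5′ to 3′, are examples from members whose values are given below and do not stand for a whole class. Pcna and Aurka, for instance, also rose and hold neither an E2F-like nor a CHR motif in theirs. Capitals mark E2F-like and CHR motifs of either strand, and each of the capital stretches in Mcm6 holds a pair of overlapping E2F-like matches. The first 3 are helicase and nucleotide genes that rose, with E2F-like motifs, and the next 3 are mitotic genes that rose, with CHR motifs and in Cdk1 and Mki67 an E2F-like motif as well. The last 2 are the genes that fell, Mcm10 with no match to either in the stretch and E2f8 with both.
Mcm6 (chr1:128359706-128359855, minus strand): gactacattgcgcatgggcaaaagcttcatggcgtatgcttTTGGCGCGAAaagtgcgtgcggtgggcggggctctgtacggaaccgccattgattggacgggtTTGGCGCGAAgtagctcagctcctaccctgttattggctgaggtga
Mcm5 (chr8:75109359-75109508, plus strand): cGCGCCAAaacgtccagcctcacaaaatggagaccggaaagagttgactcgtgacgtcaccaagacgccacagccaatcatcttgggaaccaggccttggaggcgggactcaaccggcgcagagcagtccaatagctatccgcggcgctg
Rrm1 (chr7:102441545-102441694, plus strand): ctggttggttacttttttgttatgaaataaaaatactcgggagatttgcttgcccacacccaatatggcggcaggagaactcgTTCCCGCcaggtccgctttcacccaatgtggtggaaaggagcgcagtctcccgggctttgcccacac
Cdk1 (chr10:69352913-69353062, minus strand): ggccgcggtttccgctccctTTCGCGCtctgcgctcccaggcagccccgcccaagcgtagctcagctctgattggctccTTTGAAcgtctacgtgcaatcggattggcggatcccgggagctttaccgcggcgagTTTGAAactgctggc
Mki67 (chr7:135716380-135716529, minus strand): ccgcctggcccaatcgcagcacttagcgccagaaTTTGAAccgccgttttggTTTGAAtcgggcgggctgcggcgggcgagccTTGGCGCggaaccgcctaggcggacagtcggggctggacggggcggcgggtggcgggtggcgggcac
Top2a (chr11:99024190-99024339, minus strand): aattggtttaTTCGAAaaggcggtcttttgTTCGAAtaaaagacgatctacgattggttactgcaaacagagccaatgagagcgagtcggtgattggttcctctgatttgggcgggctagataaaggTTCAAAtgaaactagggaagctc
Mcm10 (chr2:5012792-5012941, minus strand): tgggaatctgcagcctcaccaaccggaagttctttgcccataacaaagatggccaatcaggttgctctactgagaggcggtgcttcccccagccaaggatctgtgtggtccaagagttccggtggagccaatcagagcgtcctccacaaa
E2f8 (chr7:48881597-48881746, minus strand): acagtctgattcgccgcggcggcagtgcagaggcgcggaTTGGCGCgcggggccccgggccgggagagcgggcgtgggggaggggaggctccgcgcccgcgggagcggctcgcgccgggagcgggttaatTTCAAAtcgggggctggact

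The helicase genes rose nearly as a set. Of the 9 CMG genes 8 were higher at 30 μg/kg, with a median log2 fold change of 2.11. Mcm6, a subunit of the ring, was at 4.48, 6.78, 5.18, 4.76 and 4.80 CPM in vehicle mice and at 41.4, 28.9, 22.4, 49.0 and 32.3 CPM at 30 μg/kg. It rose 6.69-fold (log2 2.74 ± 0.24 SE, adjusted p = 2.67e-12), and at 10 μg/kg it was already at 19.8 to 25.7 CPM. Mcm7, the most abundant ring subunit in vehicle by CPM per kb, was at 13.7, 12.3, 18.2, 16.8 and 17.0 CPM and at 35.6, 28.8, 20.1, 32.7 and 22.1 CPM at 30 μg/kg. Its groups did not overlap, but its rise of 1.79-fold (log2 0.84 ± 0.13 SE, adjusted p = 6.04e-07) was the smallest called rise of the ring, and with the second run alone it fell short of the fold threshold (log2 0.53).

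Mcm2 was at 3.13, 4.73, 3.75, 3.29 and 5.01 CPM in vehicle mice and at 15.9, 14.8, 13.7, 26.7 and 18.6 CPM at 30 μg/kg. Mcm3 was at 5.17, 6.78, 4.79, 3.92 and 3.44 CPM and at 23.1, 19.6, 14.1, 28.6 and 19.1 CPM. Neither overlapped vehicle, and they rose 4.51-fold and 4.32-fold (log2 2.17 ± 0.19 and 2.11 ± 0.21 SE). The other ring subunits rose 3.25-fold (Mcm4) and 8.28-fold (Mcm5), and Cdc45, which joins the ring to form the active helicase, rose 2.90-fold, from 1.60 ± 0.470 to 4.65 ± 0.984 CPM (SD, n = 5).

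The GINS genes parted ways. Gins1 was at 2.24, 2.74, 2.01, 2.59 and 2.29 CPM in vehicle mice, at 3.51, 5.61, 3.77, 3.61 and 3.14 CPM at 3 μg/kg and at 2.96, 2.58, 3.28, 2.74 and 2.66 CPM at 30 μg/kg. Every mouse at 3 μg/kg lay above vehicle, while at 30 μg/kg the groups overlapped. The log2 fold change was 0.73 ± 0.20 SE at 3 μg/kg (adjusted p = 0.0130), 0.66 at 10 μg/kg and 0.26 at 30 μg/kg (adjusted p = 0.269), and between 30 and 10 μg/kg the difference of -0.40 was not called (adjusted p = 0.116). Scaled to total counts alone, Gins1 was called at 30 μg/kg too (log2 0.75, adjusted p = 0.00327). Gins2 rose 5.24-fold at 30 μg/kg from 0.494 to 2.56 CPM, but 67.3% of its exon bases also belong to Gse1 on the other strand, and unstranded counting gives the reads in that stretch to neither gene. On strand-specific counts, which take in reads of that stretch, Gins2 was not called and its sign turned (log2 -0.34, adjusted p = 0.2905). Gins2 had 145, 109, 185, 84 and 98 such counts in vehicle mice and 100, 159, 165, 153 and 159 at 30 μg/kg, so its rise is seen on unstranded counts alone. Because the libraries keep no strand, these counts can hold reads of Gse1 too, which was lower at 30 μg/kg (log2 -0.82). The part of Gse1 in the turned sign was not tested.

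Of the licensing and firing genes, the loaders rose and Mcm10 fell. Cdt1 was at 1.69, 2.86, 2.14, 2.80 and 1.86 CPM in vehicle mice and at 9.40, 13.0, 13.0, 18.6 and 11.9 CPM at 30 μg/kg. It rose 5.82-fold (log2 2.54 ± 0.24 SE, adjusted p = 1.57e-11) without overlap. Cdc6, which works with CDT1 at origins, rose 10.1-fold from 0.187 ± 0.248 to 1.95 ± 0.861 CPM (SD, n = 5), on a mean of 3 counts in vehicle.

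Mcm10, which helps to activate the loaded helicase and stays with the fork, was the member with the most reads in vehicle, at 648 to 840 counts. Its level was 32.2, 50.8, 54.4, 46.2 and 48.1 CPM in vehicle mice, 10.7, 14.4, 11.8, 12.9 and 23.1 CPM at 10 μg/kg and 10.0, 7.07, 5.11, 6.67 and 6.24 CPM at 30 μg/kg. All treated mice of both doses lay below all vehicle mice. Mcm10 fell 3.18-fold at 10 μg/kg (log2 -1.67 ± 0.26 SE) and 6.60-fold at 30 μg/kg (log2 -2.72 ± 0.28 SE, adjusted p = 1.06e-10), and it also fell from 10 to 30 μg/kg (log2 -1.05 ± 0.27 SE, adjusted p = 0.00238). Per kb of exon its vehicle level of 6.03 CPM was exceeded among the 42 genes only by that of Pcna (9.64), and at 30 μg/kg it was 0.914. At the lower doses it was not called, and 1 mouse at 0.3 μg/kg reached 104 CPM, where the other mice of that dose were at 35.7 to 54.9 CPM.

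The sliding clamp and the genes of nucleotide supply had the lowest median log2 fold change of the G1/S roles at 30 μg/kg (1.15). Pcna, the clamp that tethers polymerases to DNA, was at 23.3, 23.5, 22.3, 24.8 and 21.8 CPM in vehicle mice and at 44.3, 45.5, 36.0, 50.7 and 46.6 CPM at 30 μg/kg. Its rise was 1.93-fold (log2 0.95 ± 0.09 SE, adjusted p = 9.18e-12), and its gain of 8.94 CPM per kb was the largest of the 42 genes. At 10 μg/kg all 5 mice lay above vehicle, but the 1.37-fold change was under the fold threshold. Rrm1, the large subunit of ribonucleotide reductase, was at 11.1, 13.4, 10.7, 11.9 and 9.24 CPM and at 23.4, 24.5, 23.1, 45.7 and 28.1 CPM at 30 μg/kg. It rose 2.57-fold (log2 1.36 ± 0.14 SE), and its small subunit Rrm2 rose 5.09-fold. Tyms, which makes thymidylate, was at 7.92 ± 0.690 CPM in vehicle and 9.16 ± 1.81 CPM at 30 μg/kg (SD, n = 5), and the difference was not called (log2 0.21, 95% interval -0.09 to 0.52, adjusted p = 0.256), though with scaling to total counts alone it was (log2 0.69, adjusted p = 5.66e-05).

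Of the 5 G1 cyclins and E2F factors, 4 were higher and 1 was lower at 30 μg/kg. Ccnd1, which encodes cyclin D1 and answers to growth signals, was at 6.77, 15.1, 12.7, 8.53 and 8.52 CPM in vehicle mice, at 43.8, 40.2, 83.9, 73.9 and 40.2 CPM at 10 μg/kg and at 62.6, 44.0, 31.1, 55.4 and 45.9 CPM at 30 μg/kg. Neither treated group overlapped vehicle, and the treated groups overlapped each other. Ccnd1 rose 5.46-fold at 10 μg/kg and 4.63-fold at 30 μg/kg (log2 2.45 ± 0.32 and 2.21 ± 0.32 SE), and the step between them was not called (log2 -0.24, adjusted p = 0.592). The cyclin E genes rose 7.75-fold (Ccne1) and 4.03-fold (Ccne2) at 30 μg/kg. Ccne2 shares 17.4% of its exon bases with Ints8 on the other strand. On strand-specific counts, which can hold reads of Ints8, Ccne2 was not called (log2 0.55, adjusted p = 0.122).

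E2f1, an activator of synthesis genes, was at 3.03, 6.72, 6.15, 5.11 and 4.01 CPM in vehicle mice and at 10.7, 9.03, 8.69, 9.84 and 11.8 CPM at 30 μg/kg. It rose 2.00-fold (log2 1.00 ± 0.19 SE, adjusted p = 1.71e-05) without overlap. E2f8, a repressor of the same family, was at 9.50, 6.53, 5.31, 6.72 and 3.37 CPM in vehicle mice, at 1.73, 0.784, 3.23, 1.88 and 1.17 CPM at 10 μg/kg and at 1.57, 3.12, 1.75, 2.62 and 1.90 CPM at 30 μg/kg. It fell by 1.84 on the log2 scale at 10 μg/kg and by 1.52 at 30 μg/kg (adjusted p = 0.00384 and 0.00736), with all treated mice below vehicle, but the call at 30 μg/kg was lost within either run alone (adjusted p = 0.0642 and 0.0595) and with scaling to total counts (log2 -1.03, adjusted p = 0.0703).

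A neighbour of E2f8 on the other strand was also lower at 10 and 30 μg/kg. Gm2788, whose exons share 11.2% of the exon bases of E2f8, had 449, 366, 294, 229 and 167 counts in vehicle mice, 29, 20, 2, 2 and 17 counts at 10 μg/kg and 4, 2, 0, 5 and 4 counts at 30 μg/kg (log2 -7.13 ± 0.60 SE, adjusted p = 9.54e-13). E2f8 itself had 191, 105, 82, 96 and 47 counts in the same vehicle mice, 36, 17, 62, 32 and 21 at 10 μg/kg and 34, 75, 46, 66 and 45 at 30 μg/kg. In vehicle both genes were highest in the first mouse and lowest in the fifth. At 3 μg/kg E2f8 had 57, 196, 86, 35 and 15 counts and Gm2788 had 109, 335, 156, 48 and 37, which ranks these mice in the same order. At 10 μg/kg E2f8 was highest in a mouse with 2 counts of Gm2788. Between 10 and 30 μg/kg the counts overlapped for both genes. The libraries keep no strand, so reads from E2f8 and from Gm2788 transcripts cannot be told apart by strand, and the part of the neighbour in the fall of E2f8 was not tested.

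**Figure D4:**
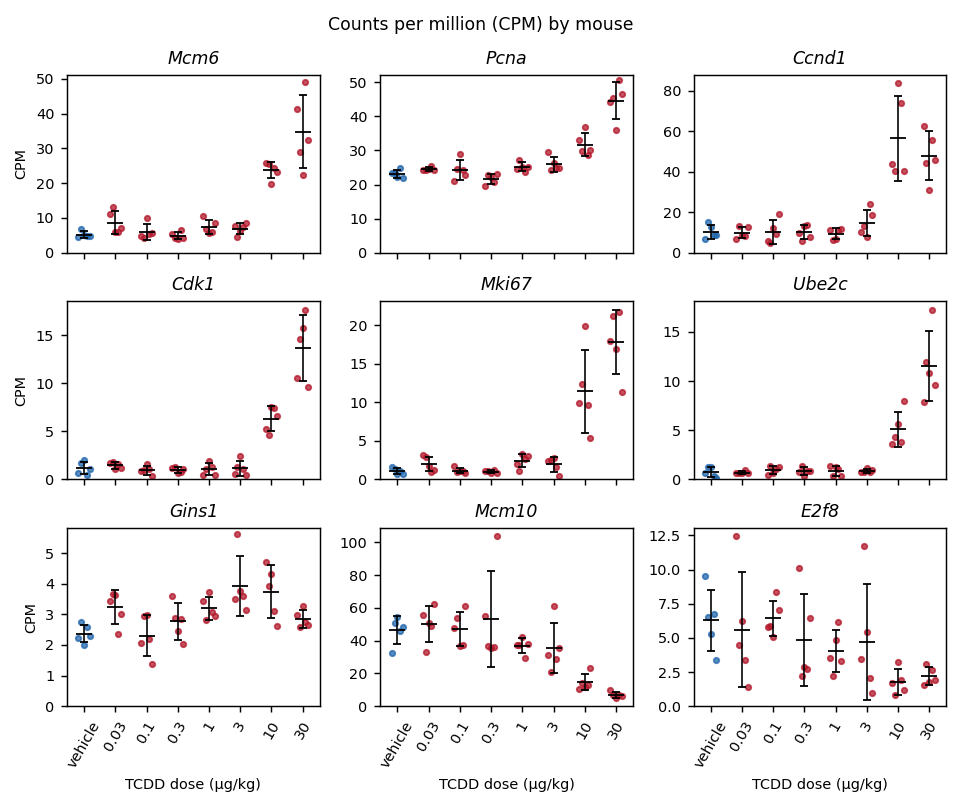
CPM of 9 genes in each mouse (points) by TCDD dose in μg/kg, with the mean and SD of 5 mice as black bars and each panel on its own linear axis. Mcm6, Pcna, Ccnd1, Cdk1, Mki67 and Ube2c rise at 10 and 30 μg/kg, Gins1 lies above vehicle at 3 μg/kg (3.14 to 5.61 CPM), and Mcm10 and E2f8 fall, with 1 mouse at 0.3 μg/kg at 104 CPM for Mcm10.

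All 6 genes of the mitotic cyclin-CDK switch rose at 10 and at 30 μg/kg, with a median log2 fold change of 3.88 at 30 μg/kg. Cdk1, the kinase that drives mitotic entry, was at 0.647, 1.74, 2.01, 0.490 and 1.07 CPM in vehicle mice and at 10.6, 14.6, 15.8, 17.7 and 9.65 CPM at 30 μg/kg. Ccna2, cyclin A2, was at 0.796, 0.871, 0.259, 0.560 and 0.287 CPM and at 7.73, 8.61, 8.92, 9.33 and 5.82 CPM at 30 μg/kg. Both stood clear of vehicle, with rises of 11.4-fold (log2 3.52 ± 0.37 SE, adjusted p = 3.22e-10) and 14.2-fold (log2 3.82 ± 0.39 SE, adjusted p = 9.46e-11). The B cyclins rose 29.9-fold (Ccnb1, the largest fitted fold of the 42 genes, from 0.241 to 7.34 CPM) and 6.51-fold (Ccnb2). The fold of Ccnb1 rests on 3, 8, 2, 1 and 5 counts in vehicle mice. When a mouse was left out its log2 was 4.68 to 5.34, where that of Cdc25c was 3.79 to 6.80. Foxm1, a transcription factor of mitotic genes, rose 15.2-fold from 0.421 to 6.45 CPM. Cdc25c, the phosphatase that switches CDK1 on, had 3 counts in the 5 vehicle libraries together and 95 at 30 μg/kg, a CPM ratio of 20.9 with an exact 95% counting interval of 6.95 to 103, which covers counting error only.

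Both mitotic exit genes rose at 10 and 30 μg/kg, and between these doses the rise was called for Ube2c (log2 1.18, adjusted p = 0.00517) and not for Cdc20 (log2 0.35, adjusted p = 0.398). Cdc20, which directs the anaphase-promoting complex, was at 0.299, 0.684, 0.583, 0.560 and 0.0716 CPM in vehicle mice and at 9.72, 8.78, 8.77, 9.33 and 7.25 CPM at 30 μg/kg. Ube2c, its ubiquitin-conjugating partner, was at 0.697, 1.31, 1.29, 0.350 and 0.143 CPM and at 7.87, 11.9, 10.8, 17.3 and 9.65 CPM at 30 μg/kg. They rose 19.7-fold and 14.9-fold (log2 4.30 ± 0.37 and 3.90 ± 0.39 SE, adjusted p = 1.67e-12 and 6.91e-11) without overlap. On strand-specific counts Ube2c was not called (log2 0.82, adjusted p = 0.282), where 1 vehicle mouse then had 260 counts and the other vehicle mice had 0 to 10. Tnnc2, a muscle gene that shares exon bases with Ube2c on the other strand, likewise had 241 counts in that library and 0 in the other vehicle libraries, and without strand such shared reads enter neither gene.

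Of the mitotic kinases and checkpoint genes all 6 were higher at 30 μg/kg, and Aurka changed least. Aurka, a centrosome kinase, was at 3.58, 3.17, 3.37, 4.62 and 3.08 CPM in vehicle mice and at 5.09, 5.45, 5.72, 7.15 and 7.21 CPM at 30 μg/kg. It rose 1.72-fold at 30 μg/kg (log2 0.78 ± 0.20 SE, adjusted p = 0.000978), was not called at 10 μg/kg, and was the only one of the 42 genes with no dose trend. Within either run alone its call at 30 μg/kg was lost (adjusted p = 0.0986 and 0.0517). Birc5, survivin of the chromosomal passenger complex, was at 0.896, 0.746, 1.04, 1.54 and 1.29 CPM and at 3.84, 8.15, 5.49, 6.83 and 5.06 CPM at 30 μg/kg. Bub1b, a spindle checkpoint kinase, was at 0.746, 1.06, 0.388, 0.140 and 0.287 CPM and at 5.05, 5.82, 4.81, 4.68 and 5.65 CPM. Both lay above vehicle in all treated mice, with rises of 5.35-fold and 9.59-fold. Aurkb, the kinase that works with survivin, rose 18.5-fold, the checkpoint kinase Bub1 19.7-fold and Plk1, a kinase of mitotic entry, 10.2-fold. The fold of Bub1 rests on 6, 5, 0, 0 and 0 counts in vehicle mice, and its log2 was 4.00 to 4.94 when a mouse was left out.

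The 7 genes of chromosome and spindle machinery rose with a median log2 fold change of 3.79 at 30 μg/kg. Mki67, the Ki-67 antigen that marks cycling cells, was at 1.64, 1.37, 0.647, 1.12 and 0.645 CPM in vehicle mice, at 9.93, 12.4, 19.9, 9.66 and 5.33 CPM at 10 μg/kg and at 18.0, 21.2, 16.9, 21.7 and 11.3 CPM at 30 μg/kg. It rose 10.3-fold and 16.1-fold (log2 3.37 ± 0.36 and 4.01 ± 0.37 SE), and the step from 10 to 30 μg/kg was not called (adjusted p = 0.111). Top2a, which untangles sister chromosomes, was at 1.04, 1.31, 1.17, 2.10 and 0.716 CPM in vehicle mice and at 16.1, 18.7, 17.4, 18.7 and 16.7 CPM at 30 μg/kg. Its mice were closely grouped at 30 μg/kg (17.5 ± 1.17 CPM, SD, n = 5), a rise of 13.8-fold. Tpx2, a spindle assembly factor, was at 0.746, 0.498, 0.518, 0.280 and 0.143 CPM and at 8.15, 8.57, 7.28, 11.2 and 7.97 CPM at 30 μg/kg, an 18.9-fold rise with the lowest adjusted p of the 42 genes (1.29e-13). The motors rose 5.95-fold (Kif11), 6.96-fold (Kif20a, with a log2 of 2.80, and of 1.20 on strand-specific counts) and 13.9-fold (Cenpe, the kinetochore motor), and Nusap1, which binds spindle microtubules, rose 4.71-fold.

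Below 10 μg/kg few of these genes were called, and all that were had risen. At 1 μg/kg only Cdt1 was, at 5.16, 4.78, 4.09, 3.03 and 3.95 CPM against a highest vehicle value of 2.86 CPM (log2 0.89 ± 0.24 SE, adjusted p = 0.0251), where 2.15% of all genes were called higher. At 3 μg/kg there were 6, namely Gins1, Mcm2, Mcm3, Cdt1, Bub1b and Tpx2, with log2 fold changes of 0.65 to 1.23, where 4.53% of all genes were called higher. Mcm2 was at 6.83, 5.25, 6.65, 6.29 and 6.21 CPM at 3 μg/kg, above every vehicle mouse, and Mcm3 was at 7.98, 7.88, 6.53, 9.09 and 10.9 CPM, with 1 mouse inside the vehicle range. Cdt1 was at 3.02, 2.57, 2.89, 4.43 and 6.15 CPM, Bub1b at 1.21, 1.49, 1.44, 1.46 and 0.704 CPM and Tpx2 at 1.09, 0.716, 1.38, 1.28 and 0.576 CPM, and each of these overlapped vehicle. The count of 6 fell to 3 without vehicle replicate 4 and to 3 without vehicle replicate 5, and to 0 and 2 within the runs.

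From 10 to 30 μg/kg, 15 of the 42 genes rose further and Mcm10 fell further, where 10.6% of all genes were called higher and 10.6% lower. The rises were Cdc45, Mcm2, Mcm3, Mcm4, Cdt1, Rrm1 and Ccne1 of the G1/S class and Ccna2, Ccnb2, Cdk1, Ube2c, Birc5, Bub1, Top2a and Tpx2 of the G2/M class. Their log2 differences ran from 0.61 (Mcm3) to 1.65 (Bub1). Ube2c, for example, went from 5.09 ± 1.82 to 11.5 ± 3.55 CPM (SD, n = 5). The count of 16 depended on the libraries and the scaling: it was 7 without 30 μg/kg replicate 4, 10 without 10 μg/kg replicate 1, 2 and 7 within the runs, and 29 with scaling to total counts alone.

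Over the 8 ordered steps from vehicle to 30 μg/kg, 39 genes had an upward slope and 2 a downward slope with adjusted p under 0.05, where 31.5% and 26.1% of all genes had. For shorter series the low-count filter was run again, which left 14759 genes up to 10 μg/kg and 14389 up to 3 μg/kg. Members that failed it, Cdc25c among them up to 3 μg/kg, were not tested. Up to 10 μg/kg 33 members had an upward and 2 a downward slope, where 21.3% and 18.3% of the genes tested had. Up to 3 μg/kg 4 members had a slope, all upward. Of the genes tested there 10.9% had an upward and 9.22% a downward slope.

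Further genes of the same pathways, taken from wider lists, were compared at 30 μg/kg, where 23.2% of all genes were called higher and 18.9% lower. Of 46 other replication genes tested, 23 were higher and 2 lower (median log2 fold change 0.76). Among the largest rises were Clspn, which relays fork stalling (0.123 to 2.51 CPM), and Uhrf1, which maintains DNA methylation (1.07 to 8.99 CPM). The genes that fell were Tk1, thymidine kinase, from 27.3 ± 3.06 to 9.56 ± 1.25 CPM (SD, n = 5; log2 -1.51, adjusted p = 5.44e-12) and Pold2, a polymerase delta subunit, from 14.8 to 9.56 CPM.

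Of 60 other mitosis genes tested, 52 were higher and 2 lower (median 2.85). In this list and the replication list, genes of fewest vehicle counts passed the filter only through treated mice with higher counts. The counts called higher are therefore in part set by the filter. Of the mitosis genes 5 had at most 3 counts in every vehicle library. Of all 3504 tested genes under 20 vehicle counts, 1437 were called higher at 30 μg/kg. Hmmr, a spindle protein, went from 0.0840 to 5.83 CPM and Ckap2l from 0.0712 to 4.25 CPM. Kif14, a motor of cytokinesis, had 0 counts in every vehicle library and 1.41 ± 0.250 CPM at 30 μg/kg, at least 7.26-fold above the floor of 3 counts per vehicle library. Against these stood Ccnf, which encodes cyclin F and fell from 25.1 ± 5.50 to 6.43 ± 2.91 CPM (log2 -1.96, adjusted p = 4.15e-08), and Pttg1, securin, from 25.7 to 16.6 CPM. Both had started far above the other mitotic genes named here.

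Of 22 cell cycle regulators tested, 10 were higher and 1 was lower (median 0.52). Cdkn1a, the CDK inhibitor p21, rose from 11.6 ± 3.42 to 95.1 ± 36.5 CPM (log2 3.04, adjusted p = 4.74e-07), Myc rose from 3.64 to 23.9 CPM, and Pkmyt1, a kinase that holds CDK1 inactive, rose from 1.02 to 4.59 CPM. Gas1, known as a growth arrest gene, fell from 30.9 ± 4.85 to 3.44 ± 1.08 CPM (log2 -3.16, adjusted p = 1.35e-13). At 10 μg/kg the 3 lists had 17 higher and 1 lower, 48 higher, and 7 higher and 2 lower, where 13.6% and 8.13% of all genes were called.

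Markers of liver cell types also moved between vehicle and 30 μg/kg, and in whole-liver RNA fewer cells of a type and less RNA per cell cannot be told apart. The summed hepatocyte markers spanned 103224 to 124673 CPM in vehicle and 30582 to 62607 CPM at 30 μg/kg, with 7 of 8 called lower. The macrophage sum spanned 167 to 234 CPM in vehicle and 583 to 1562 CPM at 30 μg/kg, with 8 of 8 higher. The stellate or fibroblast sum spanned 183 to 301 CPM and 633 to 1426 CPM (7 of 8 higher), the endothelial sum 147 to 199 CPM and 274 to 366 CPM (5 of 7), and the cholangiocyte sum 37.4 to 48.4 CPM and 68.0 to 333 CPM (4 of 5 tested higher, Sox9 lower).

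Blood cell markers were low apart from the erythroid ones. The neutrophil sum spanned 1.75 to 4.08 CPM in vehicle and 15.6 to 50.2 CPM at 30 μg/kg (4 of 4 tested higher), with Ly6g and Mpo at 0 in every vehicle library. The T or NK cell sum spanned 2.74 to 6.16 CPM and 4.70 to 12.1 CPM (4 of 7 tested higher), and the B or plasma cell sum 4.54 to 5.81 CPM and 6.61 to 14.2 CPM (4 of 5). The erythroid sum spanned 291 to 426 CPM and 150 to 584 CPM, with 1 of 7 tested higher and 2 lower. At 30 μg/kg 1 mouse, replicate 1, had the lowest macrophage, stellate and neutrophil sums (583, 633 and 15.6 CPM). It also had the lowest cholangiocyte sum (68.0 CPM) and the highest hepatocyte sum (62607 CPM) of that dose. Its G1/S level was 1.51 above vehicle, where the other mice had 1.48, 1.15, 1.78 and 1.40. Its G2/M level was 3.10, next to the lowest, where the others had 3.38, 3.31, 3.51 and 3.09. At 10 μg/kg, where 36 of the 42 genes were called, the macrophage sum was 412 to 660 CPM, the neutrophil sum 8.18 to 14.0 CPM and the hepatocyte sum 65491 to 104228 CPM. The stellate or fibroblast sum was 479 to 595 CPM there (5 of 8 higher) and the endothelial sum 269 to 305 CPM (6 of 7 higher). The cholangiocyte sum was 35.7 to 75.7 CPM, with 0 of 5 tested called. At 3 μg/kg the macrophage sum was 248 to 463 CPM and the stellate or fibroblast sum 255 to 315 CPM. The part of each cell type in the changes of the 42 genes was not tested.

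**Figure D5:**
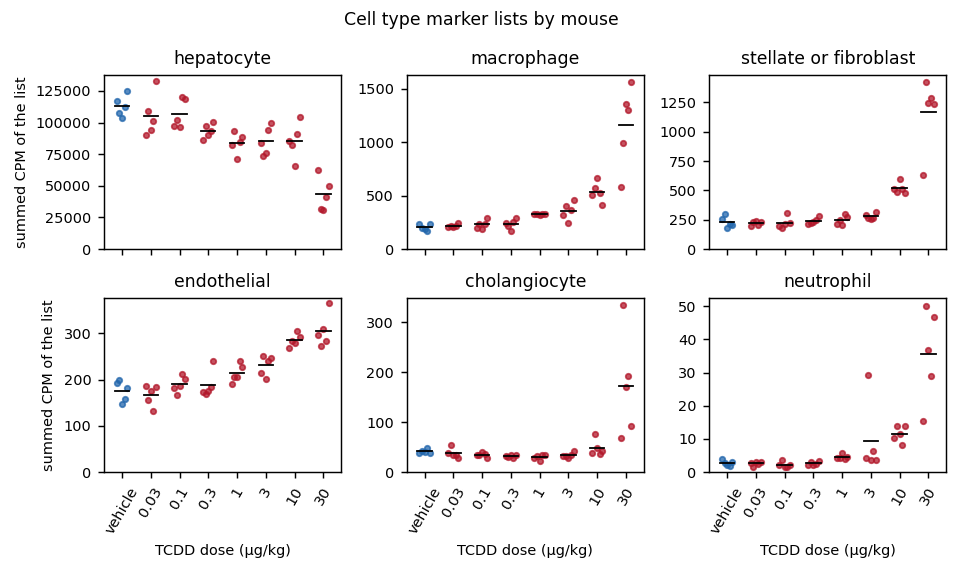
Summed CPM of 6 lists of cell type markers in each mouse (points, with the mean as a bar) by TCDD dose in μg/kg, each panel on its own linear axis. The hepatocyte sum has its lowest and the macrophage, stellate and neutrophil sums have their highest values at 30 μg/kg, with macrophage sums of 583 to 1562 CPM there against 167 to 234 CPM in vehicle.

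Because the libraries keep no strand, members whose exons meet another gene are less certain. The first strand setting held 50.0% to 50.3% of strand counts. Strand-specific counts of such members can therefore hold reads of the neighbour, while unstranded counts leave shared reads out. In the GENCODE M21 annotation 15 of the 42 genes share exon bases with another gene, 13 of them with a gene on the other strand, and 9 share over 10% of their exon bases. The largest shares were those of Gins2 (67.3%, with Gse1), Kif20a (29.3%, with Cdc23), Ccnd1 (23.4%, with LTO1) and Ube2c (22.8%, with Tnnc2). LTO1 and Cdc23 were not called at 30 μg/kg, Gse1 was lower (log2 -0.82), and Tnnc2 had 0 unstranded counts in vehicle and at 30 μg/kg. Of the partners with smaller shares, Exosc9 (12.5% of Ccna2, log2 0.61) and Oip5 (4.24% of Nusap1, log2 2.47) were higher. Ints8 (log2 -0.70) and Gm2788 were lower, and Ufd1, Ap4m1, Cops6 and Elovl1 were not called.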

How the data were processed

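The authors deposited raw counts of reads per gene for each of the 40 liver libraries, which per the submitters' processing notes came from STAR 2.7.3a after FastQC 0.11.7 and Trimmomatic 0.39. The genome builds named there are mm10 and GRCm39, with no role, and the annotation is not given in the sources used here. Unstranded counts were used. Rows that name no gene were left out: unmapped reads were 2.47% to 11.3% and ambiguous reads 4.84% to 5.90% of a library. The authors also deposited a log2 table of 23120 genes, which equals the DESeq2 variance-stabilized counts within 5.03e-10 and served only as an alternative.

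Counts were filtered (filterByExpr, min.count 10, min.total.count 15), TMM scaled and fitted over all 40 libraries with edgeR 4.0.16 (quasi-likelihood test, Benjamini-Hochberg adjustment) in R 4.3.3. SE is the log2 fold change divided by the square root of F. The study's posterior probability was replaced by the adjusted p, at the same 1.5-fold threshold. Class levels are means of log2 CPM with a prior count of 2. The dose trend is a slope over steps 0 to 7. Lengths and overlaps are from GENCODE M21, symbols were found for 52083 of 55359 identifiers, and promoters are RefSeq's. Motifs were searched on both strands.

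The members and the lists were chosen with earlier results of these data known. Members given by mouse are the 2 with the most counts in each of the 8 roles, Ccnd1, Mki67, Top2a and E2f1, those called below 10 μg/kg and those called at 30 μg/kg against the direction of most. From the wider lists, up to 3 genes in each direction were named among those called, with a mean of at least 20 counts in the higher group. Of these, 1 gene is not reported here. Alternatives used DESeq2 1.42.0 and limma 3.58.1, other scalings and filters, the strand-specific column, the runs of sample titles and leaving out each mouse. The tests were checked on simulated counts in which only genes of at least 20 expected vehicle counts were changed. That check does not cover genes as low in vehicle as most G2/M genes were. No 2 libraries of a group agreed within sampling noise (lowest chi-square per degree of freedom 11.1 over 80 pairs).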

Additional observations from a re-analysis of the deposited data

Results flagged for a closer look

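In 6 of the 82 groups of 5 mice examined, 1 mouse stood apart from the rest by Dixon's criterion, where chance flags about 1 in 20 groups. The G1/S level of 1 mouse at 0.1 μg/kg was 0.32 above vehicle on the log2 scale, with the next at 0.02, and that of 1 mouse at 3 μg/kg was 0.0243, with the next at 0.22. The G2/M level of 1 mouse at 10 μg/kg was 2.86, with the next at 2.42, and this mouse had the highest Mki67 and Ccnd1 of its group (19.9 and 83.9 CPM). Cdt1 reached 8.00 CPM in 1 mouse at 10 μg/kg, with the next at 6.72 CPM. Birc5 was lowest at 2.00 CPM in 1 mouse at 10 μg/kg, below the other mice of that dose. Rrm1 reached 45.7 CPM in replicate 4 at 30 μg/kg, with the next at 28.1 CPM, and in that mouse Mcm2 (26.7 CPM), Mcm3 (28.6 CPM), Mcm6 (49.0 CPM), Pcna (50.7 CPM) and Cdt1 (18.6 CPM) were also the highest of the group.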

How the results depend on the processing

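Of 1259 values recomputed under an alternative, 321 counts and medians stayed close to the reported value (36 moved), and 890 values of single members at 30 μg/kg kept their direction and their side of the threshold, 9 lost their call, 2 gained one and 1 turned its sign, Gins2 on the strand-specific column (log2 -0.34). Called members numbered 1 at 1 μg/kg, and 0 within either title run, 2 with covariates for title run and order (an alternative chosen after seeing the data), 2 with DESeq2 and 0 with limma on the log2 table. At 3 μg/kg, where 6 were called, there were 0 and 2 within the runs, 1 on the strand-specific column (a fall), 2 with limma and 3 to 6 when a mouse was left out. With a mean of at least 50 counts required, which leaves fewer genes to test, the calls were 18 at 10 μg/kg, 20 at 30 μg/kg (6 G2/M), 21 had a trend, 10 differed between 30 and 10 μg/kg, and 14 other replication and 12 other mitosis genes were called. The G1/S median of 2.01 became 2.50 with total counts, 1.59 with that filter, 1.72 within run 1, 1.45 on the strand column and 1.28 with limma, and the G2/M median of 3.80 became 4.30 with total counts, 3.42 and 4.19 within the runs, 3.47 on the strand column, 1.93 with limma and 3.65 to 4.03 when a mouse was left out. The 16 calls between 30 and 10 μg/kg became 29 with total counts, 2 and 7 within the runs and 7 to 19 when a mouse was left out. The regulators called were 7 within run 2, and 4 members had a trend over the doses up to 3 μg/kg, an alternative chosen, like that up to 10 μg/kg, after seeing the data. Fits within a run rest on fewer mice, the variance-stabilized scale that limma used compresses low counts by construction, and otherwise the cause was not tested. No paired analysis was possible because replicate numbers follow the order of the samples and pair no mice.

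Depth limits the mitotic genes: 19 of the 21 G2/M genes had under 20 mean counts in vehicle, so their folds rest on few vehicle reads. Members that crossed the threshold at 30 μg/kg were Gins1, Mcm7, E2f8, Ube2c, Aurka, Gins2 and Ccne2, with values in the text above, Tyms with scaling to total counts (log2 0.69) and Cdc25c within run 1 (log2 3.43, adjusted p = 0.0512).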
